A study of Mus musculus with 23 samples.

Results

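The comparison described here set zygotes that lacked maternal Cxxc1 against wild-type zygotes, at the level of every gene with a measurable transcript. Its members were all genes with an FPKM (fragments scaled to transcript length and to the library's total) of at least 1 in at least 2 of the 6 zygote libraries. They numbered 10122 of the 24411 genes in the deposited table. The wild-type group held 3 libraries of zygotes from wild-type females mated with wild-type males. The deletion group held 3 libraries of zygotes from Cxxc1fl/fl;Zp3-Cre females, also mated with wild-type males, so these embryos inherited an intact Cxxc1 allele from the father. Germinal vesicle (GV) oocytes of 3-week-old females with the same genotypes, 3 libraries each, and 2-cell embryos of the same crosses, 2 wild-type and 3 deletion libraries, were set beside them. The age of the zygotes' mothers, the number of embryos per library and whether libraries came from separate animals are not stated in the labels. The p-values therefore reflect the spread among these libraries alone, which may be technical.

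Cxxc1 encodes CFP1, a zinc-finger protein that binds unmethylated CpG dinucleotides and brings the SETD1 histone methyltransferases to promoters, where they trimethylate lysine 4 of histone H3. Zp3-Cre is driven by a zona pellucida gene promoter and acts in growing oocytes, when most of the egg's RNA store is made. The fully grown GV oocyte is transcriptionally quiet, and the fertilised egg depends on stored maternal RNA, much of which is deadenylated and degraded between meiotic maturation and the activation of the embryo's own genome. A zygote library therefore holds mostly maternal transcripts, and a difference between zygotes can arise in the oocyte's transcription, in RNA clearance or in the first embryonic transcription. From FPKM alone, fewer transcripts per embryo and a smaller share of the library cannot be told apart.

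Depth is unknown because the table holds FPKM. Wild-type zygote libraries held 8842, 8631 and 8770 genes at an FPKM of at least 1, and deletion libraries held 9901, 9832 and 9714. The 100 most abundant genes of each library took 32.6% ± 0.3 (SD, n = 3) of the summed gene FPKM in wild type and 24.1% ± 0.3 (n = 3) after deletion, without overlap between the groups in either measure (exact permutation p = 0.1 for both, two-sided, the smallest that 3 against 3 allows). The table also held 92 ERCC rows, which are named like a commercial set of external RNA standards. Their summed FPKM was 1851, 2042 and 1680 in wild-type and 1515, 1953 and 2098 in deletion zygotes, which overlapped (exact permutation p = 1). How much standard was added, and to how many embryos, is not given in the sources used here. Libraries of 1 group correlated at 0.980 to 0.986 across members and libraries of different groups at 0.897 to 0.910 on the log2(FPKM + 1) scale. The labelled cell type was checked against 12 oocyte and egg genes, which were all members and summed to 5955 to 6894 FPKM in wild type, against 8700 to 9847 FPKM in deletion zygotes. Of 18 granulosa and cumulus markers, 13 stayed below an FPKM of 1 in all 6 libraries and Foxl2, Ptx3 and Lhcgr were listed at 0. Their summed level was 22.4 to 26.2 FPKM in wild type, against 33.0 to 38.3 FPKM in deletion zygotes and came mostly from Cyp19a1 and Nr5a2. Of 12 tested, 3 were called higher and 0 lower as deposited, and 1 higher under each other scaling. The granulosa marker Amh, which was not a member, was called higher under every scaling. It was listed at 0 in every wild-type library and stood at 0.440, 0.518 and 0.961 FPKM after deletion. The fibroblast marker Dcn was listed at 0, 0 and 0.210 FPKM in wild type and stood at 1.78, 3.22 and 2.37 FPKM after deletion. Its list of blood and stroma markers did not share that change as a whole. Of 6 tested genes 2 were called higher as deposited and 4 were not called (median log2 change 0.03). The summed level of the list overlapped, at 4.13 to 19.4 FPKM in wild type, against 8.02 to 13.6 FPKM in deletion zygotes. The part of other cells in the differences below was not tested.

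Cxxc1 was at 29.1, 24.0 and 30.7 FPKM in the wild-type libraries and at 1.29, 1.11 and 1.61 FPKM in deletion zygotes. The groups did not overlap, and the log2 change was -3.63 ± 0.26 (SE, adjusted p = 6.11e-10, limma on log2(FPKM + 1) with Benjamini-Hochberg adjustment over 13731 genes, as in all tests across genes below). A table row named RGC-CRE was listed at 0 in every wild-type zygote library and stood at 3.19, 3.12 and 2.00 FPKM in the deletion zygotes. Both rows therefore separated the libraries as their labels do.

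With FPKM as deposited, transcripts that rose outnumbered those that fell, an order that did not hold under 2 other scalings described below. Of the 10122 members, 4565 (45.1%) were called higher and 1554 (15.4%) lower in deletion zygotes, against 35.4% and 11.5% of all 13731 genes tested, and 4003 members were not called. In either direction 60.5% of members were called, against 46.9% of all genes tested. The rise was also the larger change in size. At least 2-fold changes were reached by 2042 members that rose and 233 that fell, and at least 4-fold changes by 430 and 10. The 3 wild-type and the 3 deletion values did not overlap for 65.8% of members, against 55.2% of all genes tested. In these zygotes the rising members were low in wild type, with a median of 3.71 FPKM against 9.96 FPKM after deletion. The falling members were more abundant, with a median of 29.4 FPKM in wild type and 18.2 FPKM after deletion. The same libraries made the calls, and 677 of the rising members reached an FPKM of 1 in deletion libraries only, so part of this order is built in. In wild-type GV oocytes the medians were 15.5 FPKM for the rising and 18.5 FPKM for the falling members. Among the 7809 members at an FPKM of at least 1 in all 6 libraries, 43.2% were called higher and 18.1% lower. Another 836 members reached that level in deletion libraries only and 110 in wild-type libraries only.

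**Figure D1:**
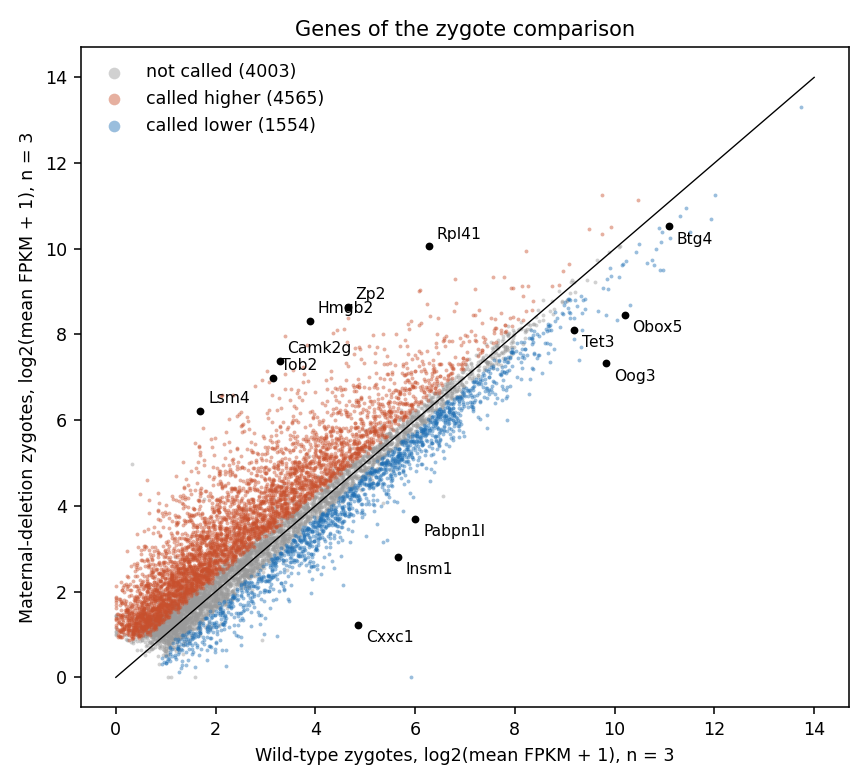
Mean FPKM of each of the 10122 members in wild-type zygotes (horizontal axis) and maternal-deletion zygotes (vertical axis), both as log2(mean FPKM + 1) of 3 libraries, with the line of equal level. The 4565 members called higher lie above the line and spread farther from it than the 1554 called lower, and black points mark labelled genes such as Cxxc1, Hmgb2 and Oog3.

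The balance of the calls depended on how libraries were set against each other. Of all called members, 74.6% were higher with FPKM as deposited and 82.0% after division by the ERCC sum, but 40.1% after median-of-ratios scaling and 45.6% after quantile normalization, 2 methods that centre the libraries on a common level. The median log2 change over all genes tested was 0.22 as deposited and shifted by -0.26, -0.29 and -0.02 under median-of-ratios scaling, quantile normalization and ERCC scaling, in that order. Calls were therefore also counted where FPKM as deposited, median-of-ratios scaling and quantile normalization gave the same direction. By that rule 2391 members (23.6%) were higher and 1528 (15.1%) lower, against 18.3% and 11.3% of all genes tested. All of them kept their sign under ERCC scaling, where 2355 and 709 were also called. Every other member called as deposited kept its sign too, so the sign under ERCC scaling did not set these genes apart. Genes named as risen or fallen below meet that rule unless another scaling is mentioned.

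**Figure D2:**
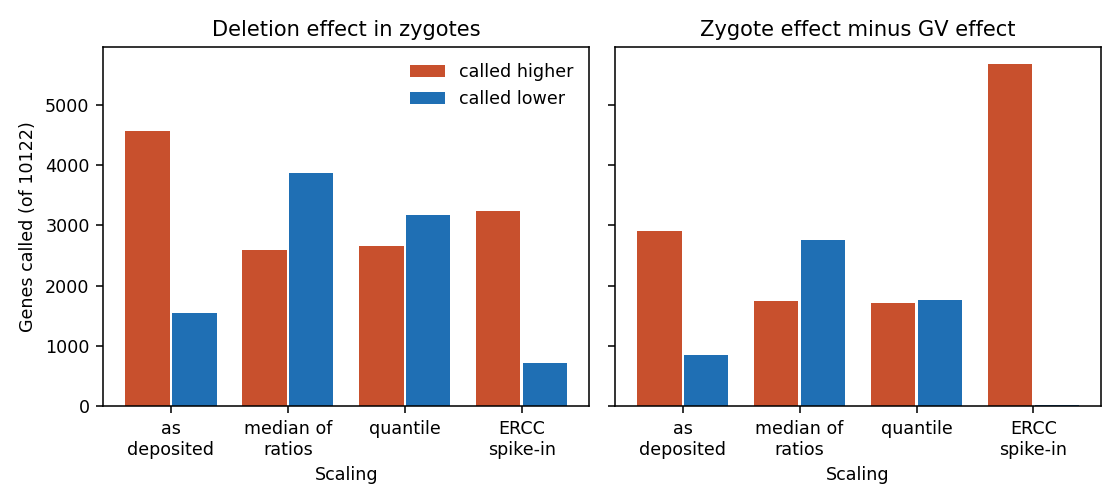
Number of members called higher (orange) and lower (blue) under 4 ways of scaling the libraries, for the deletion effect in zygotes (left) and for the difference between the zygote and the GV effect (right). In zygotes the higher calls exceed the lower ones as deposited (4565 and 1554) and under ERCC scaling (3237 and 712) but not under median-of-ratios scaling (2593 and 3867) or quantile normalization (2660 and 3178).

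The strongest rises were found in transcripts that were low in wild-type zygotes. Hmgb2, a high-mobility-group chromatin protein, was at 12.8, 14.1 and 14.4 FPKM in wild-type zygotes and at 316, 339 and 304 FPKM in deletion zygotes, a log2 change of 4.44 ± 0.15 (SE, adjusted p = 8.73e-15). Camk2g, the calcium- and calmodulin-dependent kinase that drives egg activation, was at 9.32, 9.12 and 7.77 FPKM against 156, 168 and 171 FPKM. Its log2 change was 4.09 ± 0.08 (adjusted p = 1.43e-17). In both genes every deletion library exceeded every wild-type library by more than the range within either group. Leo1, a subunit of the RNA polymerase II-associated PAF1 complex, rose from 2.51, 2.18 and 2.43 FPKM to 51.4, 62.4 and 53.2 FPKM. Uvrag, which acts in autophagy and endosome traffic, rose from 5.997, 4.49 and 7.13 FPKM to 103, 124 and 102 FPKM. Ube2t, the ubiquitin-conjugating enzyme of the Fanconi anaemia pathway, stood at 17.1, 6.52 and 15.9 FPKM in the wild-type libraries and at 202, 247 and 191 FPKM after deletion. Wild-type library 2 was the low one for Ube2t, and the groups stayed far apart without it. Zcrb1, a protein of the minor spliceosome, was at 5.89, 7.24 and 8.27 FPKM and rose to 122, 174 and 127 FPKM. Ranbp1, a regulator of the nuclear transport GTPase Ran, rose from 5.66, 2.94 and 5.38 FPKM to 62.2, 79.8 and 73.9 FPKM. The log2 changes of these 5 genes lay between 3.72 and 4.12. Anapc13, a small subunit of the anaphase-promoting complex, was more variable in wild type, at 8.75, 1.69 and 3.17 FPKM, and stood at 73.3, 57.2 and 77.7 FPKM after deletion. Some genes were below an FPKM of 1 in every wild-type library, as Fabp7, a brain-type fatty acid binding protein, which was listed at 0, 0.621 and 0.594 FPKM in wild type and was at 14.1, 17.5 and 23.4 FPKM after deletion. Cox4i2, an isoform of a cytochrome c oxidase subunit, and the histone gene Hist1h4j were listed at 0 in all 3 wild-type libraries and averaged 2.24 and 2.47 FPKM in deletion zygotes.

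The genes with the strongest falls included oocyte genes and genes better known from other tissues. Oog3, an oogenesin gene of oocytes and early embryos, was at 874, 988 and 869 FPKM in wild-type zygotes and 159, 145 and 173 FPKM in deletion zygotes, a log2 change of -2.51 ± 0.10 (SE, adjusted p = 6.65e-14). Tcl1b2, of an oocyte-rich Tcl1 gene cluster, was at 604, 690 and 563 FPKM against 176, 159 and 170 FPKM. Dstyk, a dual-specificity kinase, was at 52.2, 51.0 and 55.7 FPKM against 13.2, 13.0 and 15.0 FPKM. None of these 3 genes showed overlap between the groups, and each wild-type level was more than 3 times the deletion level in every library. Zfp423, a zinc-finger transcription factor, fell from 14.8, 12.1 and 15.2 FPKM to 3.51, 2.09 and 3.14 FPKM. Neurog3, a basic helix-loop-helix factor better known from the endocrine pancreas, fell from 75.6, 79.4 and 78.5 FPKM to 23.6, 20.6 and 25.2 FPKM. Cpa1, a pancreatic carboxypeptidase gene, fell from 246, 220 and 223 FPKM to 64.7, 59.8 and 64.6 FPKM. Insm1, another zinc-finger factor of endocrine cells, fell from 49.2, 41.9 and 57.4 FPKM to 4.95, 7.21 and 5.90 FPKM. Cobl, an actin nucleator, Sycp2, a component of the meiotic chromosome axis, Hivep1, a large zinc-finger protein, and Olfm1, a secreted glycoprotein, fell by 1.71, 1.67, 1.64 and 1.62 on the log2 scale. Insm1, Neurog3 and Cpa1 were present in wild-type GV oocytes too, at means of 28.2, 17.9 and 192 FPKM.

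**Figure D3:**
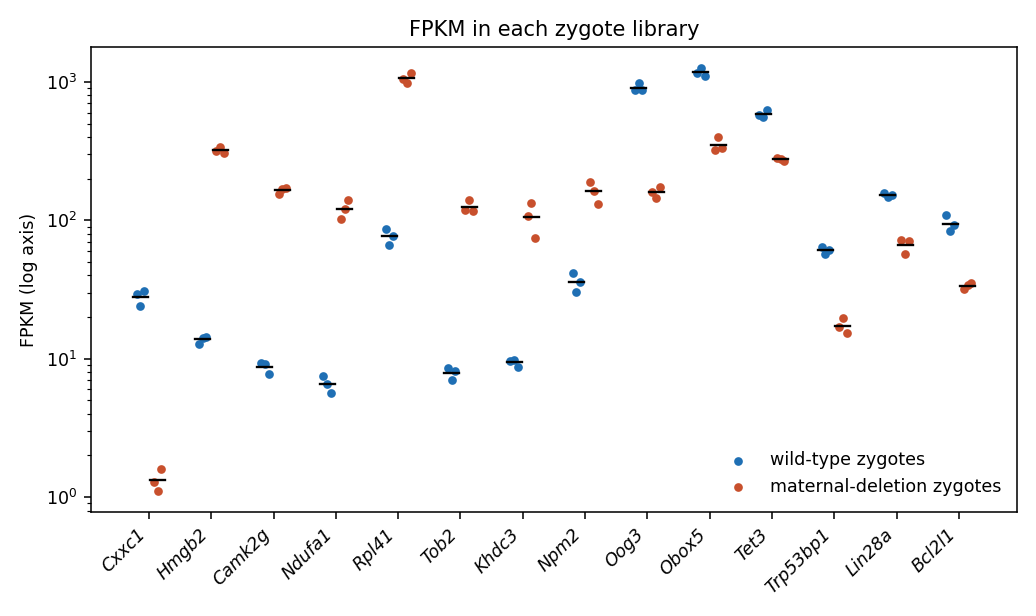
FPKM of 14 named genes in each of the 6 zygote libraries on a log axis, with wild-type libraries in blue, maternal-deletion libraries in orange and a bar at each group mean (n = 3). The groups do not overlap for any of these genes; Hmgb2 and Camk2g lie above 100 FPKM in every deletion library and below 20 FPKM in every wild-type library, and Oog3 shows the opposite order.

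Because CFP1 binds CpG, the promoter letters of the most changed genes are shown. These are the 250 bases before the annotated start (RefSeq, build GRCm38.p6), 5′ to 3′ on the strand of the gene, with each CG in capitals, for the first 3 genes in the ranking by rise and the first 3 in the ranking by fall that have an entry in the promoter table. The risen genes are Timm9 (chr12:71136676-71136925, minus strand), Hmgb2 (chr8:57511593-57511842, plus strand) and Zcrb1 (chr15:93398335-93398584, minus strand).
Timm9: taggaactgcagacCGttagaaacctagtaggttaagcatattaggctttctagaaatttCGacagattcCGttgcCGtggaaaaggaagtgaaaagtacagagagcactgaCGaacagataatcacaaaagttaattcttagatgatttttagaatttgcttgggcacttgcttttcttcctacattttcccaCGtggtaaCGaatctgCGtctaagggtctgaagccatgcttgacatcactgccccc
Hmgb2: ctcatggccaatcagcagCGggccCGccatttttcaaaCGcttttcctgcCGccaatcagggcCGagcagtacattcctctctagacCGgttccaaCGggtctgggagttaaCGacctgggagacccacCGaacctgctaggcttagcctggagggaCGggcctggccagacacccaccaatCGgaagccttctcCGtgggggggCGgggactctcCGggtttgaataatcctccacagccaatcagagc
Zcrb1: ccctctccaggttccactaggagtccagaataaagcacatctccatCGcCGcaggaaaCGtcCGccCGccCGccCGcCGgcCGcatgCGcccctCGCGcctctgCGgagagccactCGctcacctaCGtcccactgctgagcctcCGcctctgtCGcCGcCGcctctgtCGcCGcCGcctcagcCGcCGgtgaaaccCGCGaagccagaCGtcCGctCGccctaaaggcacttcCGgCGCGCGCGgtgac
The fallen genes are Oog3 (chr4:144162652-144162901, minus strand), Pabpn1l (chr8:122622736-122622985, minus strand) and Itga9 (chr9:118711442-118711691, plus strand).
Oog3: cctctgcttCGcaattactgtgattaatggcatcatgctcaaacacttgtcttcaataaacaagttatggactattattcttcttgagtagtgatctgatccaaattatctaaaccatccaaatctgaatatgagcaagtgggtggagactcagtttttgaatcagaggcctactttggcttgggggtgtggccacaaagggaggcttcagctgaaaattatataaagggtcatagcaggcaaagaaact
Pabpn1l: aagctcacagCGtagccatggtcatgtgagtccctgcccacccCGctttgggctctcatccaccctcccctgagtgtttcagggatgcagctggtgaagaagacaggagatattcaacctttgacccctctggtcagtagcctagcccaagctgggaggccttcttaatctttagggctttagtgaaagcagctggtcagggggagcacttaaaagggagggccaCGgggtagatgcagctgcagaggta
Itga9: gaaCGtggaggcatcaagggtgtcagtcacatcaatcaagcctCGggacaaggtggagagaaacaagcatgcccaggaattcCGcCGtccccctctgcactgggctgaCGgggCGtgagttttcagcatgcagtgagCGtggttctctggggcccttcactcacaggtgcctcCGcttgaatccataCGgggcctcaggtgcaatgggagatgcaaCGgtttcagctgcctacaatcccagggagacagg

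The stretches of Timm9, Hmgb2 and Zcrb1 held 8, 14 and 34 CG, and those of Oog3, Pabpn1l and Itga9 held 1, 3 and 10. This order did not extend to the calls as a whole. In the full window of 300 bases, 250 before and 50 after the start, the median number of CG was 21 in members called higher, 22 in members called lower and 21 over all members, against 7 over all 27025 promoters of the table. A promoter was found for 80.7% of members. The 233 members that fell at least 2-fold held a median of 17 CG, and 22.3% of their promoters had 5 CG or fewer. That share was 8.76% in members that rose at least 2-fold, 8.44% in all members called higher and 12.1% in all called lower. It was 10.1% over all members and 43.6% over all promoters. The 5 Obox members had a median of 1 CG and the oogenesin and Nlrp members a median of 2, whereas the oxidative phosphorylation and the proteasome members each had a median of 19 and the canonical histone members of 11. These counts describe letters in a window and were given no test.

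The gene lists below are counted by their calls as deposited, to be read against 35.4% higher and 11.5% lower over all genes tested, and where given under all 3 scalings (as deposited, median-of-ratios and quantile) against 18.3% and 11.3%. Of 86 tested genes of oxidative phosphorylation, the mitochondrial chain that makes ATP, 58 rose and 4 fell, with a median log2 change of 1.196 against 0.22 over all genes tested. Their summed FPKM was 1363 to 1497 in wild type, against 3422 to 3643 in deletion zygotes. Ndufa1, a subunit of complex I, was at 7.52, 6.59 and 5.67 FPKM in the wild-type libraries and at 101, 120 and 141 FPKM after deletion. Cox6a1, of cytochrome c oxidase, was at 30.9, 21.6 and 20.0004 FPKM against 311, 359 and 332 FPKM. The complex I genes Ndufb3 and Ndufa5 and the complex III gene Uqcr11 rose by 3.82, 3.73 and 3.88 on the log2 scale. The 4 genes that fell were Atp5a1, Cox5a, Cox6b2 and Sdha, which were at means of 72.8, 84.9, 141 and 105 FPKM in wild type and 57.0, 45.7, 81.9 and 81.9 FPKM after deletion. Mitochondrial protein import, which brings nuclear-encoded proteins into the organelle, had 14 of 23 genes higher and 1 lower (median 0.99), and 11 and 1 under all 3 scalings. The lower call was lost without deletion library 1 or 2 or any 1 of the wild-type libraries. Timm9, a small chaperone of the inner membrane translocase, went from 2.82, 4.64 and 2.68 FPKM to 88.4, 119 and 78.7 FPKM, and Tomm6 of the outer membrane pore from 4.41, 4.16 and 4.66 FPKM to 68.8, 66.2 and 68.5 FPKM. Of 36 genes of glycolysis, pyruvate handling and the TCA cycle, 23 rose and 2 fell (median 0.75), and 14 and 2 under all 3 scalings. Dld, the dihydrolipoamide dehydrogenase shared by mitochondrial dehydrogenase complexes, was at 20.2, 19.2 and 20.5 FPKM against 105, 102 and 112 FPKM, and Slc16a6, a monocarboxylate carrier family member, rose by 3.44 on the log2 scale. All 3 lists kept a positive median under every scaling, at 0.66 to 1.13 for oxidative phosphorylation, of which 47 genes rose and 4 fell under all 3 scalings.

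Among 81 tested cytosolic ribosomal protein genes 37 rose and 44 were not called (median 0.74), and under median-of-ratios scaling 26 were called higher and 4 lower. Under all 3 scalings 25 rose. Rpl41 was at 86.7, 66.3 and 77.2 FPKM in wild-type zygotes and at 1057, 974 and 1155 FPKM in deletion zygotes, and Rpsa was at 2.45, 2.30 and 1.31 FPKM against 45.5, 47.3 and 37.3 FPKM. Rplp1, an acidic stalk protein, rose by 3.58 on the log2 scale. Ribosomal protein genes have many near-identical copies in the genome, so the value of a single one is uncertain. The summed FPKM of the list, which depends less on how reads were split, was 1183 to 1346 in wild type, against 4221 to 4301 after deletion. Of 77 mitochondrial ribosomal protein genes, 37 rose and 1 fell (median 0.51), and 22 and 1 under all 3 scalings. Proteasome genes rose in 31 of 44 cases and fell in 1 (median 0.80), and 21 and 1 under all 3 scalings. Without deletion library 1 the number lower was 2. Psma5, a subunit of the 20S core, was at 4.72, 5.13 and 4.93 FPKM against 43.7, 71.1 and 44.3 FPKM. The chaperonin CCT, which folds actin and tubulin, had 3 of 8 genes higher and 5 not called (median 0.41, and -0.02 under median-of-ratios scaling), a share near that of all genes, and 1 of 8, Cct2 at a log2 change of 3.14, was higher under all 3 scalings.

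General transcription and RNA handling genes changed in both directions. Of 26 genes of RNA polymerase II and its general factors, 14 rose and 2 fell (median 0.80, positive under every scaling), and 12 and 2 under all 3 scalings. The number lower was 1 without deletion library 2 or wild-type library 2 or 3, and 0 without deletion library 3. Polr2b, the second-largest polymerase subunit, was at 1.08, 1.10 and 1.07 FPKM in the wild-type libraries and at 11.0, 15.8 and 13.1 FPKM after deletion, and Gtf2h1, of the factor TFIIH, was at 1.53, 1.36 and 1.05 FPKM against 22.6, 25.2 and 27.6 FPKM. Among 23 genes of deadenylation, the shortening of poly(A) tails that starts maternal RNA decay, 11 rose and 4 fell (median 0.33, but -0.09 under median-of-ratios scaling), and 8 and 3 under all 3 scalings. Without deletion library 2 or wild-type library 1 the number lower was 2. Those that rose most were the BTG/Tob adaptors Tob2, Tob1 and Btg2. Tob2 was at 8.58, 7.03 and 8.16 FPKM against 119, 141 and 117 FPKM, while Tob1 and Btg2 were low in both groups and rose by 2.87 and 1.96 on the log2 scale. The catalytic and scaffold genes moved less: Cnot1 rose from a mean of 7.28 to 14.3 FPKM, Pan3 fell from 110 to 60.6 FPKM, and Cnot7, at 315 and 277 FPKM, was not called. Btg4, the egg adaptor of the CCR4-NOT deadenylase, had a mean of 2175 FPKM in wild type and 1468 FPKM after deletion. It was called lower as deposited but not in every scaling. In the list of poly(A) binding and polyadenylation 9 of 20 genes rose and 4 fell (median 0.30, and -0.13 under median-of-ratios scaling), and 7 and 4 under all 3 scalings. Pabpn1l, an egg poly(A) binding protein, fell from 62.0, 62.6 and 65.3 FPKM to 9.55, 10.4 and 16.2 FPKM, whereas Papola, the nuclear poly(A) polymerase, rose from 8.54, 7.596 and 8.62 FPKM to 49.7, 56.6 and 41.2 FPKM. Lsm5, of the Lsm ring that binds RNA 3′ ends, rose by 3.09 on the log2 scale, and in its list of Lsm and Sm proteins 11 of 22 genes were called higher and 11 were not called, with 6 higher under all 3 scalings and 7 as deposited without wild-type library 2. Under median-of-ratios scaling 10 of them were called lower, and without wild-type library 2 the number that rose was 7.

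**Figure D4:**
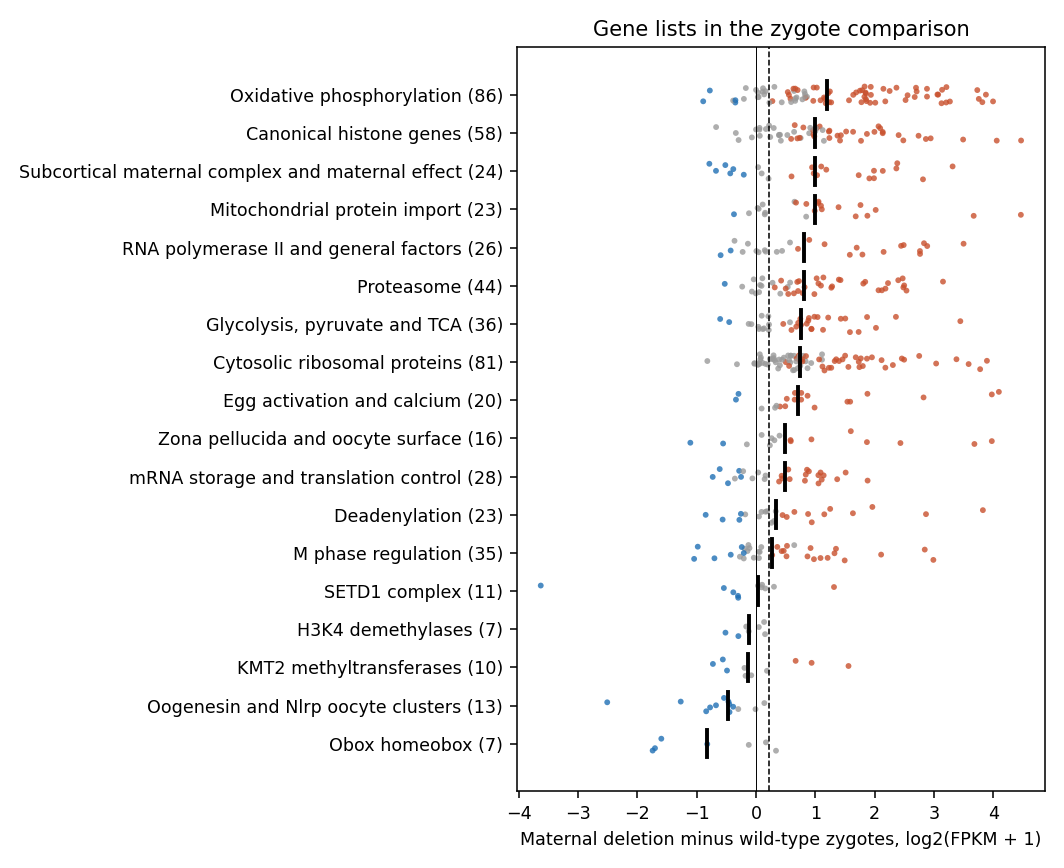
Log2 change between maternal-deletion and wild-type zygotes for each tested gene of 18 lists (points, orange called higher, blue called lower, grey not called, with number of genes in brackets and small vertical offsets for legibility). Thick bars mark list medians and the dashed line the median of all genes tested, 0.22; the medians run from 1.196 for oxidative phosphorylation to -0.82 for the Obox family.

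Maternal-effect genes, whose products the egg needs after fertilisation, were mostly higher. Of 24 tested, 15 rose and 6 fell (median 1.00), with a positive median under every scaling and 13 higher and 5 lower under all 3 scalings. Khdc3, of the subcortical maternal complex, was at 9.70, 9.81 and 8.78 FPKM in wild-type zygotes and at 108, 133 and 75.02 FPKM in deletion zygotes. Nlrp5, the complex's MATER protein, was at 61.1, 56.8 and 61.6 FPKM against 322, 335 and 292 FPKM. Npm2, the egg nucleoplasmin, was at 41.5, 30.6 and 35.6 FPKM against 190, 164 and 131 FPKM, and Nlrp14 rose by 2.37 on the log2 scale. The 6 that fell as deposited included Zbed3, the most abundant gene of all 6 libraries, at 13721 FPKM ± 855 (SD, n = 3) in wild type and 10139 FPKM ± 264 (n = 3) after deletion. Its call was not shared by every scaling. The zona pellucida and oocyte surface list had 8 of 16 genes higher and 2 lower (median 0.49, and -0.02 under median-of-ratios scaling), and 6 and 1 under all 3 scalings. Zp1, a structural zona protein, was at 38.3, 35.1 and 35.1 FPKM against 142, 160 and 107 FPKM, and Oosp2, an oocyte secreted protein, rose by 1.60 on the log2 scale. Nobox, a homeobox factor of the growing oocyte, was at 18.8, 19.2 and 19.1 FPKM against 122, 141 and 112 FPKM. Other oocyte transcription factors did not share that size of change, with 7 of 16 genes higher and 3 lower (median 0.11, and -0.49 under median-of-ratios scaling), and 2 and 3 under all 3 scalings.

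Families of tandem oocyte genes ran the other way. Of 7 tested Obox homeobox genes 4 fell and 3 were not called (median -0.82), and the same counts were found under each scaling. Obox5 was at 1164, 1250 and 1112 FPKM in the wild-type libraries and at 322, 398 and 334 FPKM after deletion, and Obox1 was at 1042, 1174 and 970 FPKM against 323, 322 and 328 FPKM. Obox2 and Obox7 fell by 1.60 and 0.82 on the log2 scale. Reads of these near-identical copies may have been shared between them, but the summed FPKM of the family also separated the groups, at 3242 to 4129 in wild type, against 1133 to 1165 after deletion. In the oogenesin and Nlrp cluster list 10 of 13 genes fell and 3 were not called (median -0.46, negative under every scaling). The 10 were lower under all 3 scalings, whereas ERCC scaling called 5 lower. After Oog3 the largest change was in Nlrp9b, at 41.6, 44.4 and 44.1 FPKM against 19.8, 18.1 and 14.6 FPKM. The Nlrp4 copies that fell changed less, from -0.39 for Nlrp4g to -0.84 for Nlrp4a.

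Of 20 egg activation and calcium genes, 15 were called higher and 2 lower (median 0.71, positive under every scaling), and 8 and 2 under all 3 scalings. Only 1 was lower without deletion library 2 or without wild-type library 1 or 3. Calm2, a calmodulin gene, was at 14.2, 10.6 and 13.8 FPKM in wild-type zygotes and at 84.3, 120 and 88.8 FPKM in deletion zygotes. Of 35 genes of M phase regulation, 17 rose and 6 fell as deposited, but 10 rose and 18 fell under median-of-ratios scaling, so the list had no stable direction. Single genes of it did. Mos, the kinase that holds the egg in metaphase, was at 7.11, 8.21 and 6.70 FPKM against 70.9, 69.3 and 56.1 FPKM. Bub1, of the spindle checkpoint, was at 1.88, 2.05 and 1.496 FPKM against 16.8, 26.6 and 15.5 FPKM, while Aurkc, the meiotic Aurora kinase, fell from a mean of 217 to 105 FPKM. For the first cell cycle, 12 of 24 DNA replication licensing genes were called higher and 3 lower (median 0.39, and -0.17 under median-of-ratios scaling), and 4 and 3 under all 3 scalings. Cdkn1b, an inhibitor of cyclin-dependent kinases, was at 3.10, 2.12 and 4.32 FPKM against 21.7, 33.2 and 23.5 FPKM, and Rb1, the retinoblastoma protein, fell from 40.6, 36.9 and 43.5 FPKM to 19.3, 17.9 and 21.99 FPKM.

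Chromatin genes outside the histones changed in both directions. Of the 11 genes of the SETD1 complexes, Cxxc1, Hcfc1, Setd1a, Wdr82 and Bod1l were lower and Ash2l was higher (median 0.03, and -0.54 under median-of-ratios scaling), and 1 gene was called lower under ERCC scaling. The number lower was 3 without deletion library 2 or 3 or wild-type library 3, and the number higher was 3 without wild-type library 1. The calls of Wdr82 and Bod1l did not survive leaving out single zygote libraries, with adjusted p up to 0.165 and 0.125, and without deletion library 2 or 3 or wild-type library 3 the list had 3 genes lower. Setd1a, a catalytic subunit, was at 82.5, 80.2 and 77.8 FPKM in the wild-type libraries and at 65.2, 56.4 and 62.3 FPKM after deletion, a log2 change of -0.38 ± 0.09 (SE, adjusted p = 0.00178). Ash2l, a core subunit shared with the KMT2 complexes, was at 11.3, 11.0 and 11.6 FPKM against 30.1, 28.6 and 30.2 FPKM. The core subunits Wdr5, Rbbp5 and Dpy30 were not called as deposited, and were lower under at least 1 other scaling. Among 10 KMT2 methyltransferase genes, which methylate the same lysine, 3 rose and 3 fell (median -0.13), also under all 3 scalings, but 7 were called lower under median-of-ratios scaling (median -0.73), 6 under quantile normalization and 1 under ERCC scaling. Kmt2b, the methyltransferase known to act in oocytes, fell from 105, 100 and 104 FPKM to 77.0, 60.1 and 72.9 FPKM, and Men1, the menin subunit, rose by 1.56 on the log2 scale. Of 7 demethylase genes acting on this lysine 2 were called lower as deposited. Median-of-ratios scaling called 5 and ERCC scaling 0, and 1 was lower without deletion library 1 or 3 or wild-type library 1 or 2. In the DNA methylation list 4 of 11 genes were higher and 4 lower, and 1 and 4 under all 3 scalings. Tet3, the oxidase that acts on the paternal genome after fertilisation, fell from 574, 555 and 623 FPKM to 283, 276 and 269 FPKM. Zfp57, a protector of imprints, rose from 330, 241 and 316 FPKM to 899, 1110 and 931 FPKM. Dppa3, which protects the maternal genome from demethylation, was higher as deposited, at a mean of 1294 against 856 FPKM, but its change was -0.01 under median-of-ratios scaling. Canonical histone genes, by contrast, rose in 33 of 58 cases and were not called in 25 (median 0.99, positive under every scaling), with 23 higher under all 3 scalings. Their summed FPKM was 67.6 to 77.9 in wild type, against 415 to 476 after deletion. Hist1h4h was listed at 0, 0.230 and 1.41 FPKM against 17.3, 22.9 and 30.3 FPKM, and Hist1h1c, a linker histone, rose by 2.86 on the log2 scale. These genes lie in clusters of near-identical copies, so single values are uncertain.

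Stress, repair and survival genes were also split. In the heat shock and metal response list 14 of 23 genes rose and 3 fell (median 0.76, positive under every scaling), and 11 and 3 under all 3 scalings. Hspb1, a small heat shock protein, was at 9.98, 12.6 and 14.7 FPKM against 125, 78.5 and 150 FPKM. Mt1, a metallothionein, was at 8.07, 9.74 and 7.79 FPKM against 47.6, 47.9 and 39.3 FPKM. Of 23 DNA damage and p53 pathway genes 9 rose and 5 fell (median 0.21, and -0.11 under median-of-ratios scaling), and 5 and 5 under all 3 scalings. Trp53bp1, a double-strand break protein, fell from 64.6, 57.4 and 60.8 FPKM to 17.1, 19.6 and 15.4 FPKM, and Mdm4, a p53 inhibitor, from 668, 586 and 704 FPKM to 294, 235 and 297 FPKM. Atr, the replication stress kinase, rose by 1.89 on the log2 scale. Bcl2l1, the survival gene that encodes BCL-XL, fell from 108, 83.6 and 92.1 FPKM to 32.1, 33.9 and 35.0 FPKM. Lin28a, an RNA-binding protein of eggs and stem cells, fell from 156, 147 and 152 FPKM to 72.0, 57.3 and 71.0 FPKM. Of 31 tested genes that mark the 2-cell embryo 9 were members. Over all 31, members or not, 7 were called higher and 2 lower as deposited and 22 were not called (median 0.10). Under all 3 scalings 3 were higher and 2 lower. When only members were tested the number higher was 3. The number higher was 4 without deletion library 1, and 3 under quantile normalization or ERCC scaling. The number lower was 1 without deletion library 1, and 0 without deletion library 2 or wild-type library 1.

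The same maternal genotype was measured before fertilisation, which shows how far the zygote differences were already present in the oocyte. The GV and zygote comparisons share no library. Of the 4565 members that were higher in deletion zygotes, 1500 (32.9%) were higher and 285 (6.24%) lower in deletion GV oocytes, against 18.3% and 11.3% of all genes tested. Read from the oocyte, 72.2% of the 2078 members that were higher in deletion GV oocytes were higher in zygotes, against 45.1% of all members. Of the 1554 members that fell in zygotes, 660 (42.5%) were lower in deletion GV oocytes and 46 were higher. Of the 1347 members lower in oocytes 49.0% were lower in zygotes, against 15.4% of all members. The median log2 change of the rising members was 0.24 in GV oocytes and 0.93 in zygotes. That of the falling members was -0.27 and -0.60. Both sets were picked by their zygote calls, so larger zygote medians are partly built in and do not show growth of the effect. Over all members, without that choice, the medians as deposited were 0.09 in GV oocytes and 0.33 in zygotes. The zygote median of all members was -0.16 with median-of-ratios, -0.06 with quantile and 0.32 with ERCC scaling. A direct test of the difference between the zygote and the GV effect called 2905 members (28.7%) higher and 855 (8.45%) lower, against 22.5% and 7.03% of all genes tested. Its balance also moved with the scaling, from 77.3% higher among called members as deposited to 38.7%, 49.3% and 99.5% under median-of-ratios scaling, quantile normalization and ERCC scaling, in that order. Under the first 3 of these 4 scalings together, 1510 members (14.9%) were called higher and 793 (7.83%) lower, against 11.7% and 6.33% of all genes tested. The GV effect by itself was fitted only with FPKM as deposited. In GV oocytes the summed FPKM of the ERCC rows was 571, 341 and 452 in wild type and 636, 889 and 800 with deletion. These sums did not overlap, unlike those of the zygotes. The number of oocytes or embryos per library is not given in the sources used here for either stage.

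At the median, members fell less between oocyte and zygote when Cxxc1 was deleted. From GV oocyte to zygote, 5426 members were lower in wild type and 4333 in the deletion series, against 50.9% and 43.2% of all genes tested. Among the 7192 members with a mean of at least 5 FPKM in wild-type GV oocytes, the median log2 change from GV oocyte to zygote was -1.02 in wild type and -0.39 with deletion. At least 4-fold falls were found in 30.3% of them in wild type and in 16.6% with deletion. The share was also smaller with deletion under the other scalings, at 17.7% against 11.5% with median-of-ratios scaling, 14.1% against 9.39% with quantile normalization and 68.0% against 39.4% with ERCC scaling. In the lists the same order held for oxidative phosphorylation, with a median stage change of -2.98 in wild type and -1.58 with deletion, for proteasome genes (-2.40 and -1.51) and for cytosolic ribosomal protein genes (-3.76 and -2.79). The list medians describe FPKM as deposited. All of these stage changes share the wild-type and deletion zygotes with the comparison above. The 7192 members were selected by their level in wild-type oocytes, with no such filter on deletion oocytes. Of all members, 836 reached an FPKM of 1 in deletion zygote libraries only. Both choices can make the fall look deeper in wild type, by an amount that was not tested.

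Several strongly raised genes had similar means in the oocytes of both genotypes and diverged in the zygotes. Khdc3 averaged 376 FPKM ± 19 (SD, n = 3) in wild-type GV oocytes and 408 FPKM ± 75 (n = 3) in deletion GV oocytes, and its zygote effect exceeded its GV effect by 3.21 ± 0.23 on the log2 scale (SE, adjusted p = 3e-09). Camk2g averaged 104 FPKM and 103 FPKM in GV oocytes and differed by 4.10 ± 0.12 between the stages (adjusted p = 1.09e-14). Hmgb2, Ube2t, Leo1 and Polr2b had differences of 4.33, 4.24, 3.996 and 2.69, all called, and none was called in GV oocytes with FPKM as deposited. A smaller set was lower in deletion GV oocytes and yet higher in deletion zygotes. Npm2 went from 1092 to 650 FPKM by deletion in GV oocytes, Zp1 from 615 to 406 FPKM, Mos from 228 to 125 FPKM and Oosp2 from 270 to 159 FPKM, all called lower there, and in zygotes all 4 were called higher. Other raised genes were raised before fertilisation. In GV oocytes Hspb1 averaged 12.3 FPKM in wild type, against 151 FPKM with deletion, Slc16a6 1.11 and 25.3 FPKM, Basp1, a membrane-bound signalling protein, 3.85 and 34.6 FPKM and Hist1h1c 5.12 and 29.7 FPKM, and the difference between the stages was not called for these 4 genes as deposited. Canonical histone genes as a list had 28 of 58 genes higher in GV oocytes and 6 of 58 with a larger effect in zygotes.

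**Figure D5:**
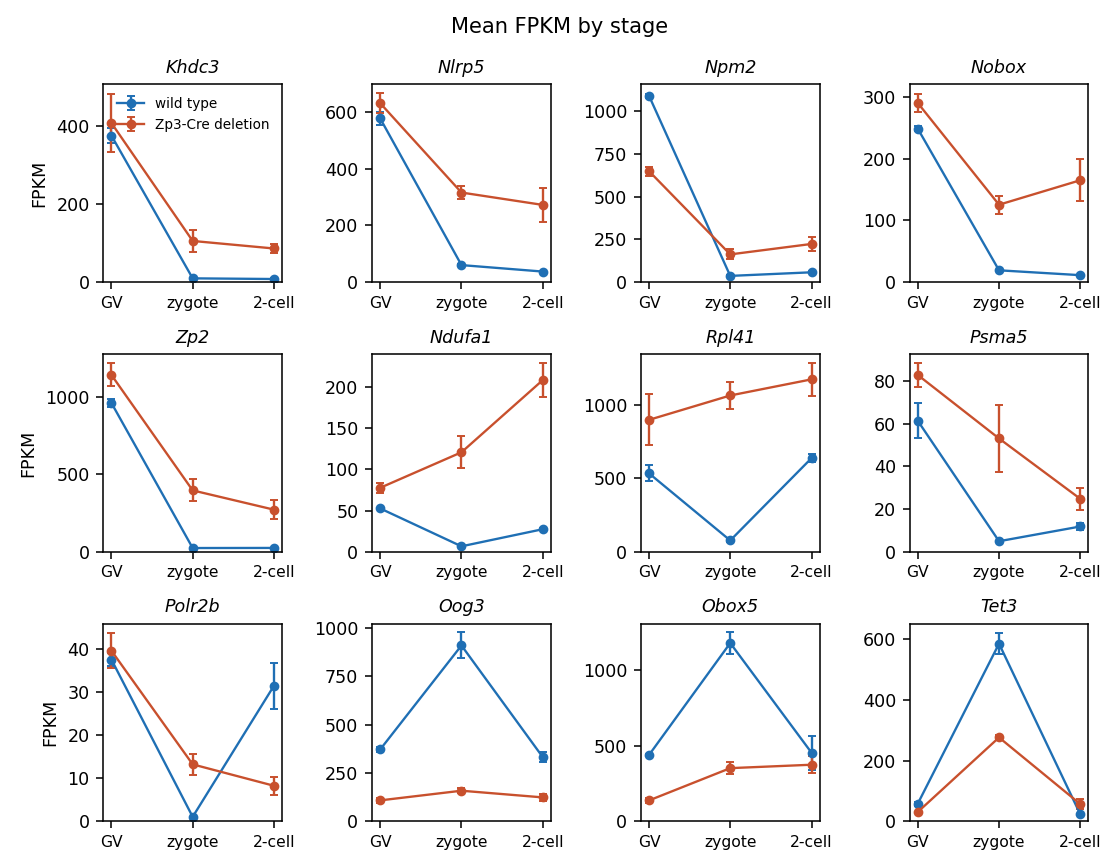
Mean FPKM (points) and SD (bars) of 12 genes in GV oocytes, zygotes and 2-cell embryos of wild type (blue) and the Zp3-Cre deletion series (orange), n = 3 for each point except wild-type 2-cell embryos with n = 2. In the 9 panels from Khdc3 to Polr2b the wild-type level is lower in zygotes than in GV oocytes and the deletion zygotes lie above the wild-type zygotes, and the panels of Oog3, Obox5 and Tet3 show a peak in wild-type zygotes that is lower after deletion.

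Several falling genes were lower from the oocyte on. In GV oocytes Obox5 averaged 438 FPKM in wild type, against 139 FPKM with deletion, and its zygote means were 1176 and 351 FPKM. The zygote effect minus the GV effect was -0.09 ± 0.17 as deposited (SE, adjusted p = 0.79), but it was called at -0.59 under median-of-ratios scaling (adjusted p = 0.0222) and at 0.71 under ERCC scaling (adjusted p = 0.0445). Insm1, Neurog3, Cpa1 and Mdm4 were also lower in deletion GV oocytes, and the difference between stages was not called for these 4 genes as deposited. Tet3 averaged 58.4 and 31.1 FPKM in GV oocytes and 584 and 276 FPKM in zygotes. Pabpn1l was the exception among the largest falls. In GV oocytes it averaged 230 FPKM in wild type, against 13.0 FPKM with deletion, so its zygote effect was smaller than its oocyte effect by 1.72 ± 0.27 (adjusted p = 5.32e-05). The opposite order, with a fall that appeared after the GV stage, was seen for Bcl2l1, at 112 and 122 FPKM in GV oocytes, with a difference between stages of -1.57 ± 0.13 (adjusted p = 2.43e-08). Cacng7, a calcium channel subunit, averaged 19.8 and 20.7 FPKM in GV oocytes and had a difference of -1.52. Lin28a, Trp53bp1, the integrin subunit Itga9 and Rb1 were lower at both stages, with a larger fall in zygotes by 0.89, 0.60, 0.83 and 0.58 on the log2 scale, all called as deposited. Under ERCC scaling the calls of Cacng7 and Lin28a were lost, and the differences of Trp53bp1, Itga9 and Rb1 were 0.24, 0.02 and 0.22.

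At the 2-cell stage the deletion effect differed again from that in zygotes. The effect in 2-cell embryos minus that in zygotes was called higher for 2878 and lower for 2947 of the 10122 members. Of all 13731 genes tested, 2954 (21.5%) were called higher and 4465 (32.5%) lower. Without deletion 2-cell library 3 the counts were 2920 and 3205. This near balance did not hold under 2 other scalings, with 4021 and 2472 under median-of-ratios scaling and 4617 and 2199 under quantile normalization. Among members that were lower in deletion zygotes, Obox2 had a mean of 54.3 FPKM in wild-type 2-cell embryos, against 269 FPKM in deletion 2-cell embryos. The 2-cell means were 89.1 and 224 FPKM for Obox1 and 23.6 and 57.2 FPKM for Tet3, wild type first. Polr2b, which was higher in deletion zygotes, averaged 31.6 FPKM in wild-type 2-cell embryos, against 8.30 FPKM in deletion 2-cell embryos, and for these 4 genes the difference between the stages was called. For Khdc3, at 7.73 and 86.1 FPKM in 2-cell embryos, it was not called as deposited, but it was under quantile normalization (0.88, adjusted p = 0.00475, limma).

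A set of abundant transcripts showed no call in zygotes. Pttg1, which encodes securin, was at 1119, 1217 and 956 FPKM in the wild-type libraries and at 953, 1229 and 1027 FPKM after deletion, and Rbbp7, a histone-binding protein, Lsm14b, a storage granule protein of the egg, and Uchl1, a deubiquitinase, also overlapped between the groups. Other scalings moved these 4 genes in opposite directions, with log2 changes of -0.65, -0.64, -0.57 and -0.51 under median-of-ratios scaling and 0.28, 0.31, 0.34 and 0.36 under quantile normalization. At the threshold for membership, Timmdc1 was just inside with a second-highest value of 1.00 FPKM and D1Pas1 just outside with 0.9996 FPKM.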

How the data were processed

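RNA-seq of mouse oocytes and embryos was analysed from the FPKM values that the authors deposited in 1 table of all libraries. The submitters' processing notes name CASAVA 1.4, TopHat2 2.0.12, Cufflinks 2.2.1, SAMtools and Bismark 0.7.6, and the builds mm10 and mm9, without saying which step used which. Read counts were not used here and the depth behind each value is unknown. The 95 rows named ERCC or RGC were kept out of the genes. Of 24411 genes, the 13731 that reached an FPKM of 1 in 2 or more of all 23 libraries were tested with limma 3.58.1 (R 4.3.3, trended empirical Bayes) on log2(FPKM + 1), in 1 fit with 8 group means and 15 residual degrees of freedom. A fold change on this scale understates the change of low genes. Calls were made below an adjusted p of 0.05 (Benjamini-Hochberg, over all tested genes). Counts of genes per library were compared by exact two-sided permutation. The fit was tested on simulated data.

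The members and the 41 gene lists were chosen with earlier results of these data known. Named genes were Cxxc1, genes from the 25 largest rises and 25 largest falls among called genes with a mean of at least 5 FPKM and no overlap, up to 5 called genes per list, the 8 largest differences between stages in each direction, up to 8 genes listed at 0 in 1 group, the 4 most abundant members not called and the genes at the threshold. Atp5a1, Cox5a, Cox6b2, Sdha, Aurkc, Btg4, Cnot1, Cnot7, Pan3, Nlrp4g, Wdr82, Wdr5, Rbbp5, Dpy30 and Zbed3 were named after their values were seen. Alternatives were median-of-ratios scaling (each library divided by the median ratio to the gene means), quantile normalization, division by the ERCC sum (added after seeing the data), filters, a pseudocount of 0.1, array weights, a replicate block and leaving out each library. Of the gene symbols of members, 7743 matched the RefSeq promoter table directly and 421 by a synonym.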

Additional observations from a re-analysis of the deposited data

Results flagged for a closer look

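The deletion effect differed between stages, by the test of the difference itself, for the following named genes. The zygote effect exceeded the GV oocyte effect on the log2(FPKM + 1) scale by 4.33 for Hmgb2, 4.24 for Ube2t, 4.10 for Camk2g, 3.996 for Leo1, 3.21 for Khdc3, 2.69 for Polr2b and 1.72 for Pabpn1l, whose fall was deeper in GV oocytes. It lay below the GV oocyte effect by these signed differences: -1.57 for Bcl2l1, -1.52 for Cacng7, -0.89 for Lin28a, -0.83 for Itga9, -0.60 for Trp53bp1 and -0.58 for Rb1. Lmo4, a LIM-domain transcription cofactor, averaged 2.15 and 22.3 FPKM in wild-type and deletion GV oocytes and 0.781 and 2.75 FPKM in the zygotes, a difference of -1.77. Its call was lost with a pseudocount of 0.1 (adjusted p = 0.135, limma). Plin2, a lipid droplet coat protein, averaged 4.34 and 38.3 FPKM in GV oocytes and 11.2 and 13.9 FPKM in zygotes, a difference of -2.004. The call of Plin2 was fragile. It was lost under ERCC scaling, with array weights, with no filter and with only the groups of the contrast. Leaving out any 1 of several GV or zygote libraries also removed it (adjusted p up to 0.113, limma). Pnpla3, a lipid droplet lipase, averaged 66.0 and 0.304 FPKM in GV oocytes and 2.56 and 0.321 FPKM in zygotes, a difference of 4.52. Eif3j1 and Eif3j2, near-identical copies of a translation initiation factor gene, differed by 7.15 and -7.14, but libraries of 1 group assigned their signal to different copies.

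Between zygotes and 2-cell embryos the deletion effect differed by 3.83 for Obox2, 3.56 for Nlrp4a, 3.02 for Obox1, 2.28 for Tet3 and -4.59 for Polr2b. Alppl2, an alkaline phosphatase, averaged 0.823 and 1.51 FPKM in wild-type and deletion zygotes and 289 and 3.76 FPKM in 2-cell embryos, a difference of -6.44. Rgs2, a regulator of G protein signalling, averaged 241 and 184 FPKM in zygotes and 6.87 and 113 FPKM in 2-cell embryos, a difference of 4.23. The 2-cell wild-type means rest on 2 libraries.

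The row named RGC-CRE, which entered no test across genes, was at 3.19, 3.12 and 2.00 FPKM in the deletion zygotes and listed at 0 in the wild-type zygotes.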

How the results depend on the processing

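Scaling moved the counts most. Members called higher in deletion zygotes numbered 4565 as deposited, 2593 after median-of-ratios scaling and 2660 after quantile normalization, and 2391 where both gave the same direction as the deposited values. Members called lower numbered 1554 as deposited, 3867 after median-of-ratios scaling, 3178 after quantile normalization and 712 under ERCC scaling. For the zygote minus GV effect, higher calls went from 2905 to 1746, 1715 and 5671 under median-of-ratios, quantile and ERCC scaling, and to 1510 under the first 2 together with the deposited values. Lower calls went from 855 to 2764, 1761 and 27. For the 2-cell minus zygote effect, higher calls went from 2878 to 4021, 4617 and 1783 under median-of-ratios, quantile and ERCC scaling. Lower calls went from 2947 to 2472, 2199 and 1548 in that order. The cause was not tested.

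Named genes changed sign under median-of-ratios scaling to -0.17 for Cyp19a1, -0.011 for Dppa3, -0.45 for Dpy30, -0.57 for Lsm14b, -0.0027 for Nr5a2, -0.54 for Rbbp5, -0.51 for Uchl1 and -0.50 for Wdr5. Under quantile normalization they did so to -0.045 for Cyp19a1, -0.00016 for Nr5a2, 0.28 for Pttg1, -0.39 for Rbbp5, 0.31 for Rbbp7 and 0 for Zbed3. Under ERCC scaling the zygote minus GV effect changed sign to 0.023 for Itga9, 0.71 for Obox5, 0.22 for Rb1 and 0.24 for Trp53bp1. Small falls that were called as deposited but not under ERCC scaling included those of Setd1a, Hcfc1, Kmt2b, Sdha, Atp5a1 and Nlrp4g.

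Other choices (no filter, a higher filter, a pseudocount of 0.1, array weights, only the groups of a contrast, only members tested, ERCC and RGC rows kept) left the counts of calls over members within 1.5 times. Leaving out 1 zygote library gave 4201 to 4360 higher and 1376 to 1483 lower calls. With 1 library of a contrast left out, the zygote minus GV effect gave 2627 to 2935 higher and 687 to 814 lower calls and the 2-cell minus zygote effect 2614 to 2929 and 2652 to 3205, where a lone wild-type 2-cell library was assumed to vary like the other groups. Atp5a1 was not called without deletion library 3 (adjusted p = 0.0623, limma). Deviations from the group means correlated at 0.07, -0.08 and -0.06 between wild-type and deletion libraries of the same number. With 3 libraries per group these values cannot settle whether the numbers pair the libraries. A fit with the replicate number as a block gave 4714 higher and 1574 lower calls in zygotes, 3039 and 843 for the zygote minus GV effect and 2804 and 3113 for the 2-cell minus zygote effect, and in the 6 zygote libraries alone 3525 and 1198. The block raised the count of cytosolic ribosomal protein genes that rose from 37 to 59. Depth is unknown, so no floor can be given for genes listed at 0.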

Other observations

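The remaining lists are counted by their calls as deposited. Among 25 autophagy genes 12 rose and 3 fell (median 0.42, and -0.09 under median-of-ratios scaling). Atg12, a ubiquitin-like conjugation protein of autophagosome formation, was at 28.4, 29.0 and 27.4 FPKM in wild-type zygotes and 103, 108 and 115 FPKM in deletion zygotes, and Atg5, its conjugation partner, rose by 1.77 on the log2 scale. Of 22 Polycomb genes 10 rose and 6 fell (median 0.05). Scmh1 and Pcgf6, a Polycomb protein and a variant complex subunit, rose by 2.16 and 1.94, from means of 7.97 and 40.6 FPKM. Of 28 genes of mRNA storage and translation control 17 rose and 5 fell (median 0.49, and -0.01 under median-of-ratios scaling), and the double-stranded RNA binding proteins Stau1 and Stau2 rose by 1.37 and 1.88. Of 20 histone variant, linker and HMG genes 12 rose and 3 fell (median 0.62), of 19 histone chaperone genes 9 rose and 2 fell (median 0.39, and -0.19 under median-of-ratios scaling), and of 30 uridylation, decapping and exonuclease genes 13 were called higher and 3 lower (median 0.31, and -0.03 under median-of-ratios scaling), and 2 and 3 under all 3 scalings. Among 16 Bcl2 family genes 3 rose and 3 fell. Bik, which promotes cell death, fell from 9.19, 15.2 and 5.40 FPKM to 2.89, 1.91 and 2.85 FPKM, and Bnip3l, a mitophagy receptor, rose from 10.4, 8.56 and 9.53 FPKM to 39.3, 46.5 and 34.1 FPKM. Of 14 pluripotency-associated genes 6 rose and 4 fell, with Esrrb, an orphan nuclear receptor, lower by a log2 change of -1.03. Of 19 genes of G1 and S phase 6 were called higher and 3 lower, and 2 and 3 under all 3 scalings. The 10 tested sperm and 6 tested oviduct epithelium markers were not called as deposited, with summed levels of 14.5 to 17.4 FPKM in wild type, against 15.7 to 17.7 FPKM in deletion zygotes for sperm and 39.6 to 55.3 FPKM and 37.6 to 63.1 FPKM for oviduct. Of 6 tested blood and stroma markers 2 were called higher as deposited and 1 under each other scaling or without deletion library 3 or wild-type library 1 or 3, with summed levels of 4.13 to 19.4 FPKM and 8.02 to 13.6 FPKM.

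For the near-identical pair Eif3j1 and Eif3j2, all 3 wild-type zygote libraries gave nearly all of the signal to Eif3j2, whereas deletion libraries 1 and 3 gave it to Eif3j1 and deletion library 2 to Eif3j2. The sum of both was 17.5, 19.0 and 17.7 FPKM in wild-type zygotes and 44.8, 47.6 and 47.0 FPKM in deletion zygotes. Mir6244 was called lower but overlapped between the groups, at 93.2, 0 and 84.3 FPKM in the wild-type libraries and listed at 0 in the 3 deletion libraries. Both were chosen after their values were seen.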
